A study of Homo sapiens with 12 samples.

Results

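The comparison described here set the monosome fraction against the polysome fraction of HEK293 cells growing in log phase. It rests on 4 of the 12 libraries of the series, 2 monosome and 2 polysome libraries, taken by their names. HEK293 is an established human embryonic kidney line, here in DMEM with 10% FBS and antibiotics, and no label names a transgene or a clone. All cells were lysed in cycloheximide, which halts elongating ribosomes, and ribonucleoprotein complexes were parted on polysome gradients. Footprints, the stretches of mRNA that ribosomes shield from nuclease, were sequenced from pooled monosome and from pooled polysome fractions. The other 8 libraries come from cells kept without serum (0% FBS) for 2 h or without amino acids for 1 h, in both fractions, and share the lysis and library protocol. The libraries of each fraction carry the letters A and B in the data, and no label says that A and B are separate cultures, so every p measures spread between these libraries, which may be technical.

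A monosome is a single ribosome on an mRNA, and a polysome is an mRNA that carries several at once. How many ribosomes an mRNA holds depends on how often translation starts, on how fast ribosomes move and on how much room the reading frame offers, so short frames and rarely started mRNAs are known from other work to spend more of their time with a single ribosome. A monosome fraction can also hold ribosomes of mitochondria, which are smaller than cytosolic ones and translate the mitochondrial chromosome. The footprints of a gene depend on its mRNA level as well as on its translation. Both fractions come from cells of the same condition, and the ratio of monosome to polysome footprints describes how a gene's ribosomes were divided between them. Levels are in CPM, TMM-scaled footprints in 1000000 coding footprints of a library, so a gene that is higher in monosomes takes a larger part of the coding footprints there. The absolute number of ribosomes in each fraction cannot be read from the ratio.

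The monosome libraries A and B held 1204002 and 778909 footprints, against 7683764 and 3585395 in polysome libraries A and B. Footprints on coding reading frames, which the ratios use, came to 289228 and 346200 in monosomes, against 5313462 and 2039730 in polysomes. The median tested gene had 17.2 and 23.2 footprints in the monosome libraries, against 275.5 and 147.5 in the polysome libraries, so the monosome side sets the precision. A floor of 3 footprints corresponds to 10.4 and 8.67 CPM in monosomes A and B, against 0.565 and 1.47 in polysomes A and B, for counting error only. Of 4765 tested genes, 900 carry the identifiers of overlapping genes in 1 entry, among those named below SOD1, RPS12, RAB4A, EIF1AX, EIF3E, PFDN6, SNRPD3 and SRSF1, and their footprints cannot be parted here. Of 10 markers of the line, 4 had a coding reading frame, among them the intermediate filament genes VIM, NEFM and NEFL, with sums of 2198 and 3022 CPM in monosomes, against 561 and 2120 in polysomes. Of 12 markers of blood, liver, endothelial and other cells, 2 did (HBA1 and COL1A1), with sums of 3.46 and 1.73 CPM in monosomes, against 1.84 and 5.69 in polysomes.

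In log phase many genes took unequal parts of the 2 fractions, in both directions. Among the genes higher in monosomes were those of RPL41, OST4 and other very small proteins, of the selenoproteins GPX4 and GPX1 and of several LSm proteins. Among the genes lower in monosomes were 34 of 51 replication-dependent histone genes, all 6 tested beta subunits of the proteasome core and 20 of 37 small GTPases. Of 4765 genes tested, 1639 differed (34.4%, edgeR quasi-likelihood test with Benjamini-Hochberg adjusted p under 0.05, here called passing). In monosomes 785 were higher (16.5% of genes tested) and 854 were lower (17.9%). A fold of at least 4 was reached by 437 of the higher and by 200 of the lower genes. Both monosome libraries lay above both polysome libraries for 760 of the higher genes, and below both for 840 of the lower ones. Over all tested genes, both monosome libraries lay above both polysome libraries in 26.5% and below them in 31.7%.

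These counts come from a fit of all 12 libraries with the letter as a block, a term for what the A libraries share against the B libraries. Without the block 541 genes passed, all of them among the 1639, with 298 higher (6.25%) and 243 lower (5.1%). A fit of the 4 log phase libraries alone, with the block, called 557 higher (11.7%) and 296 lower (6.21%). All 3 fits shared 510 genes, 298 higher and 212 lower, and the genes described with a full test below are from this set unless a sentence says otherwise, while members given with a ratio alone passed in the fit of 12 libraries with the block. Genes are not independent replicates, and over them the log2 ratio of the A libraries and that of the B libraries correlated with a Pearson r of 0.64 and a Spearman rho of 0.617. The 2 ratios had the same sign for 3429 genes (72.0%), and for all but 8 of the genes that passed. The median ratio over all genes was -0.09 on the log2 scale, -0.19 in the A libraries and -0.02 in the B libraries. RLE scaling raised this median by 0.192 and changed the split to 925 higher and 647 lower, and library-size scaling raised it by 0.134 with 836 higher and 652 lower, so ratios within about 0.2 of 0 have no settled sign.

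**Figure D1:**
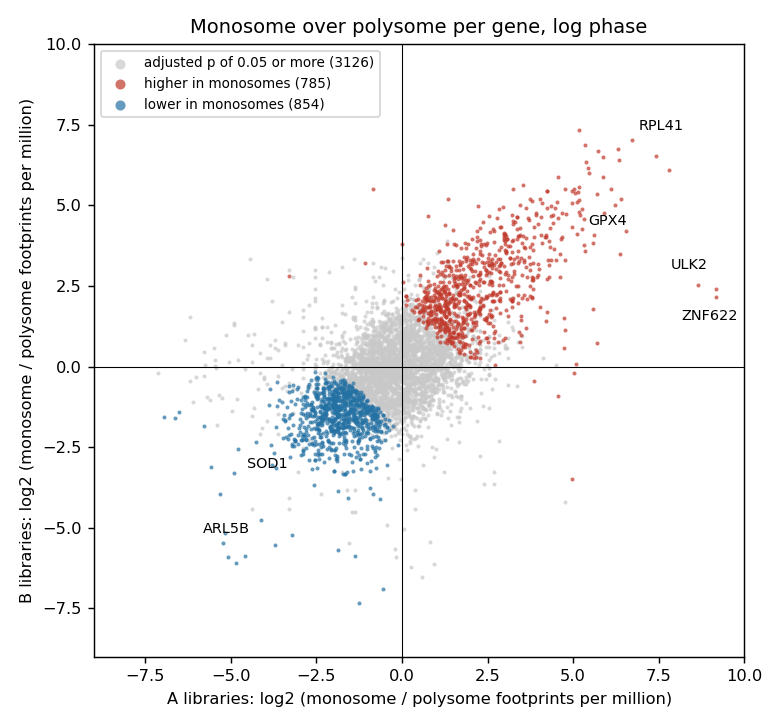
Log2 ratio of monosome to polysome CPM for each of 4765 genes, with the A libraries on the x axis and the B libraries on the y axis. Red points were higher in monosomes (785), blue points lower (854) and grey points did not pass. RPL41 and GPX4 lie far out on both axes, while ULK2 and ZNF622 reach about 9 in the A libraries and under 3 in the B libraries.

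Several genes farthest toward monosomes encode very small proteins. RPL41, a basic peptide of the large ribosomal subunit, had 2609 and 1869 CPM in monosome libraries A and B, against 24.6 and 13.96 in polysome libraries A and B (log2 ratio 6.90 ± 0.54 (SE), adjusted p = 2.19e-10). Its called frame has 23 codons (chr12:56116797-56117524, plus strand, hg38). OST4, a membrane peptide of the oligosaccharyltransferase that glycosylates secreted proteins, had 7856 and 6211 CPM in monosome libraries A and B, against 95.9 and 73.9 in polysome libraries A and B (log2 ratio 6.38 ± 0.64 (SE), adjusted p = 7.89e-09), over 41 codons (chr2:27071349-27071608, minus strand). For both genes every monosome library exceeded every polysome library, as the rule for naming them required, and the A and B libraries gave similar ratios. RPL41 has near-identical processed copies in the genome, so its footprints could be divided among them in the authors' counting.

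ATP5F1E, the epsilon subunit of mitochondrial ATP synthase, had 9359 and 2132 CPM in monosomes, against 125 and 65.8 in polysomes (log2 ratio 5.67 ± 0.58 (SE), adjusted p = 1.05e-08). BOLA3, which helps assemble iron-sulfur clusters in mitochondria, had 958 and 683 CPM in monosomes, against 15.9 and 7.21 in polysomes (log2 ratio 6.25 ± 0.49 (SE), adjusted p = 2.19e-10). SVIP, an inhibitor of endoplasmic reticulum-associated degradation, had 278 and 137 CPM in monosomes, against 3.73 and 2.70 in polysomes (log2 ratio 5.93, adjusted p = 9.46e-10), on a called frame of 6 codons. In these genes too the fractions did not overlap, which the naming rule required of BOLA3 and SVIP. ATP5F1E was well above its B value in monosome library A. BLOC1S2, a subunit of the BLOC-1 and BORC complexes of lysosome-related organelles, had 1478 and 911 CPM in monosomes, against 24.8 and 15.3 in polysomes (log2 ratio 5.90, adjusted p = 2.19e-10). TMA7 had 1518 and 1136 CPM in monosomes, against 34.8 and 15.8 in polysomes (log2 ratio 5.80, adjusted p = 3.53e-10), on a called frame of 7 codons. The ratios of SVIP and TMA7 thus cover a few codons and not the whole coding sequence. C12orf75 had the highest fitted ratio, with 267 and 113 CPM in monosomes, against 1.24 and 0.901 in polysomes (log2 ratio 7.31, adjusted p = 3.53e-10). Its polysome values rest on 7.2 footprints in the 2 libraries together, so the size is uncertain.

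One monosome library set the size of 2 of the 10 highest ratios. ULK2, a kinase that starts autophagy, had 2215 and 24.7 CPM in monosome libraries A and B, against 5.22 and 4.05 in polysome libraries A and B (log2 ratio 7.14 ± 1.25 (SE), adjusted p = 6.66e-05), and without monosome library A it did not pass (log2 ratio 3.02, adjusted p = 0.16). ZNF622, a zinc finger protein of large ribosomal subunit maturation, had 3476 and 54.9 CPM in monosomes, against 5.71 and 12.2 in polysomes (log2 ratio 6.997 ± 1.30 (SE), adjusted p = 0.000132), and it did not pass without that library either (log2 ratio 2.74, adjusted p = 0.103). For both genes monosome library A lay far above monosome library B, while the polysome libraries were close to each other.

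The genes farthest toward polysomes were of other kinds. ARL1, a small GTPase that recruits golgin tethers to the trans-Golgi, had 7.23 and 13.7 CPM in monosome libraries A and B, against 96.1 and 123 in polysome libraries A and B (log2 ratio -3.35 ± 0.57 (SE), adjusted p = 4.81e-05). H3C2, a replication-dependent histone H3 gene, had 1341 and 648 CPM in monosome libraries A and B, against 12843 and 4525 in polysome libraries A and B (log2 ratio -3.05 ± 0.57 (SE), adjusted p = 0.000149). PFDN6, a subunit of the prefoldin co-chaperone that hands actin and tubulin to the chaperonin, had 68.7 and 35.7 CPM in monosomes, against 423 and 323 in polysomes (log2 ratio -2.89 ± 0.43 (SE), adjusted p = 5.52e-06). The fractions did not overlap in these 3 genes, which the rule for naming them required. SEPHS2, which makes the selenium donor for selenoproteins, had 25.3 and 8.23 CPM in monosomes, against 152 and 108 in polysomes (log2 ratio -3.04, adjusted p = 3e-05). HAND1, a basic helix-loop-helix transcription factor, had 3.61 and 8.23 CPM in monosomes, against 51.7 and 54.5 in polysomes (log2 ratio -3.08, adjusted p = 0.000773), from 3.6 footprints in the monosome libraries together. LRRC58 (-3.05), EEIG2 (-3.16), the linker histone H1-3 (-2.86) and SEC22B (-2.91), a SNARE of transport between endoplasmic reticulum and Golgi, were also among the 10 lowest log2 ratios, and SEC22B did not pass without monosome library B (log2 ratio -1.84, adjusted p = 0.06).

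**Figure D2:**
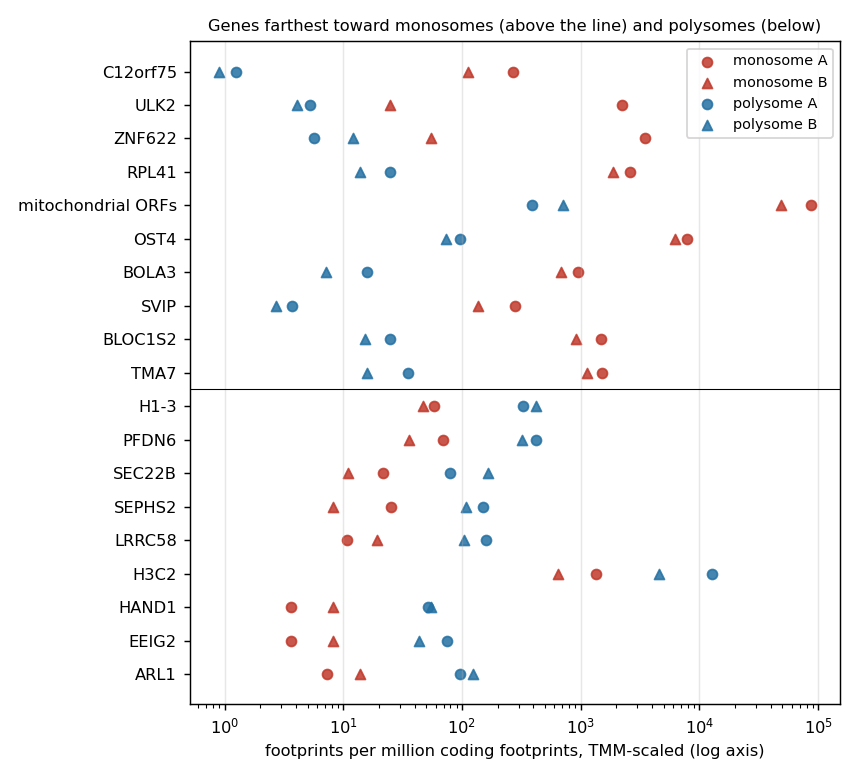
CPM (log axis) of the 10 genes with the highest and of 9 of the 10 with the lowest ratio, in monosome libraries (red) and polysome libraries (blue), A as circles and B as triangles. No gene has overlapping fractions, because genes with overlap were not eligible, and ULK2 and ZNF622 show a monosome A value far above monosome B. The row named mitochondrial ORFs is a composite identifier on the mitochondrial chromosome.

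The ratio followed the length of the called frame along a U-shaped course. Of 908 genes with a coding frame under 100 codons, 269 were higher and 76 were lower in monosomes, with a median log2 ratio of 0.74. The 1286 genes from 100 to under 200 codons had 221 higher and 318 lower members (median -0.37), and the 1615 genes from 200 to under 400 codons had 136 higher and 393 lower (median -0.50). From 400 to under 800 codons 105 of 709 genes were higher and 65 were lower (median 0.19). The 247 genes of 800 codons or more had 54 higher and 2 lower members, with a median of 0.96. The medians of both ends of the length range lay above those of the middle.

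Within the short frames the highest median, 1.53, was that of the genes from 25 to under 50 codons, 83 of them higher and 9 lower. For genes under 100 codons the median was 0.58 in the A libraries and 0.92 in the B libraries, and 1.29 and 0.55 for those of 800 codons or more. From 100 to under 200 codons the A libraries gave -0.67 and the B libraries -0.03, which is near the B median over all genes (-0.02). From 200 to under 400 codons they gave -0.52 and -0.48. From 400 to under 800 codons the A libraries gave 0.37 and the B libraries -0.01. Many called frames are fragments of a gene's annotated coding sequence. Among the 740 genes whose main frame is an annotated full coding sequence the course was the same, with medians of 0.74 (80 genes under 100 codons), -0.51, -0.66, 0.15 and, for 19 genes of 800 codons or more, 1.27. A rank correlation over all lengths hid this course, with a Spearman rho of -0.06 across genes. Of the 298 genes that were higher in all 3 fits, 135 had under 100 codons and 13 had 800 or more.

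**Figure D3:**
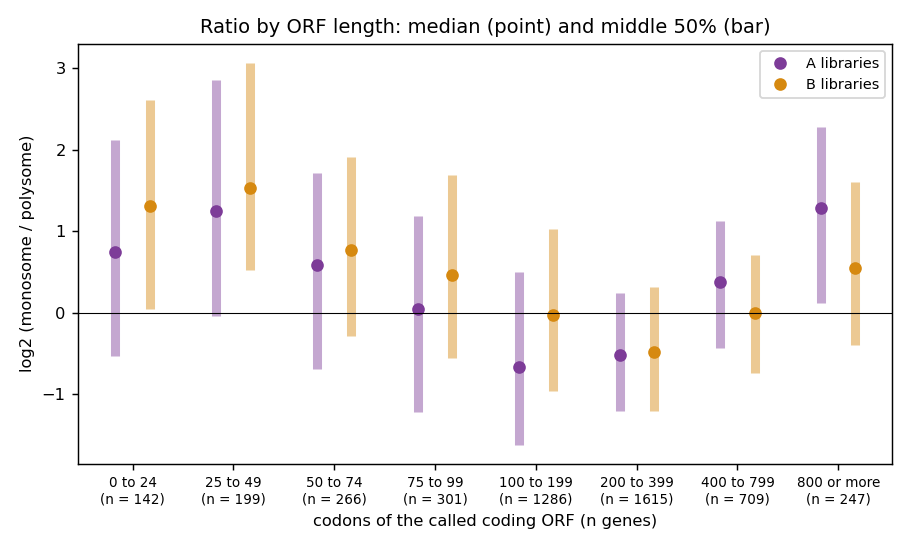
Median log2 ratio of monosome to polysome footprints (points) and the middle 50% of genes (bars) by codons of the called coding frame, for the A libraries (purple) and the B libraries (orange). Both sets of libraries are above 0 for short frames and again at 800 codons or more. The A libraries are lowest from 100 to under 400 codons, and the B libraries from 200 to under 400.

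Gene groups were described by 33 lists, and the plot of all groups orders them by their median. Over all genes 16.5% were higher and 17.9% were lower in monosomes, and this is the background against which the counts of each list stand. Selenoproteins, translation genes with a 5′TOP start other than ribosomal proteins, and Sm and LSm proteins had the highest medians. Replication-dependent histones, prefoldin and small GTPases had the lowest among lists with more than 6 tested members.

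**Figure D4:**
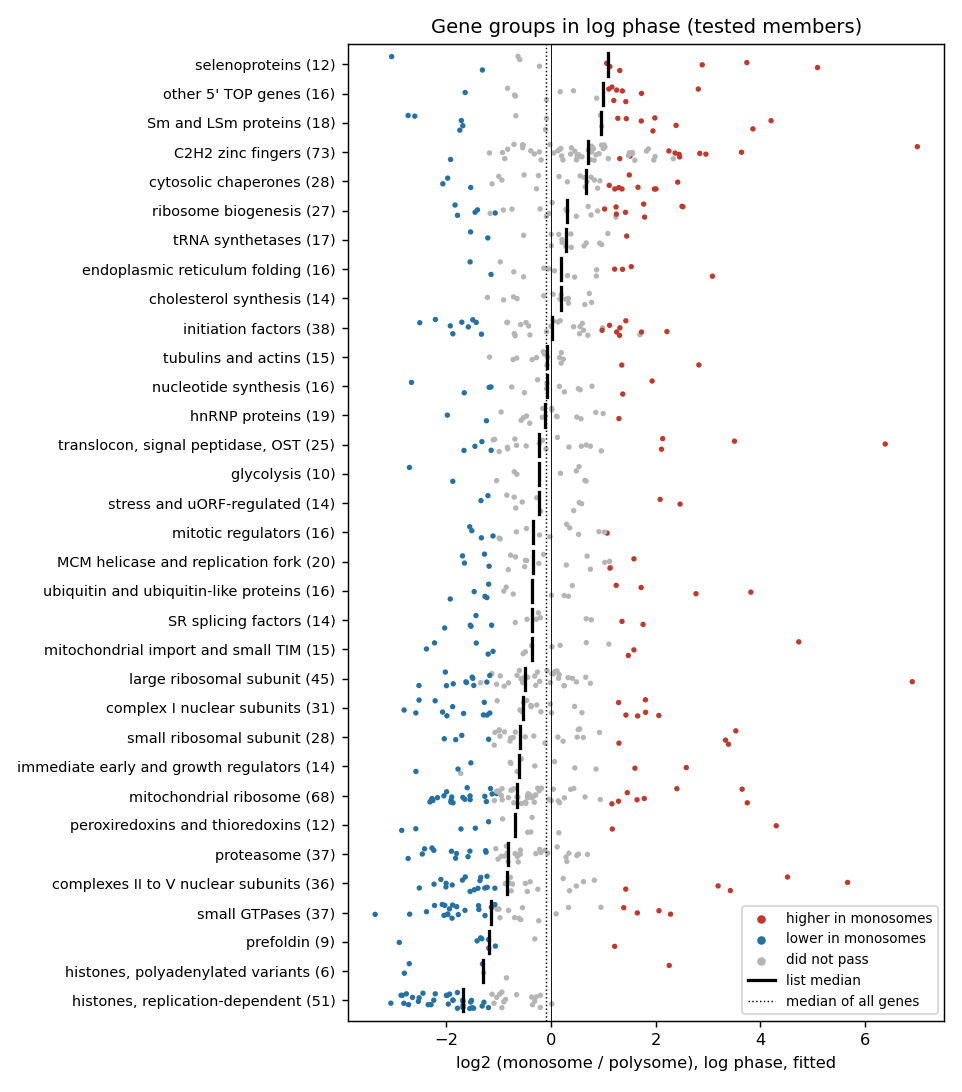
Fitted log2 ratio of monosome to polysome footprints for the tested members of 33 gene lists, ordered by list median (black tick), with the number tested in brackets. Red members were higher in monosomes, blue members lower, and grey ones did not pass, while members with 3 or fewer footprints in a fraction are not drawn. The medians run from 1.10 for selenoproteins to -1.68 for replication-dependent histones, beside -0.09 for all genes (dotted line).

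Ribosomal protein genes, 5 of them higher in monosomes, had fitted medians below that of all genes. This held in the A libraries but not in the B libraries. The mRNAs of ribosomal proteins are classical 5′TOP mRNAs, which begin with a cytosine and a run of pyrimidines and whose translation is tied to growth signals. Of 45 large subunit genes 1 was higher and 11 were lower (median -0.50), and of 28 small subunit genes 4 were higher and 4 were lower (median -0.58). RPS12 had 5341 and 4298 CPM in monosome libraries A and B, against 839.6 and 225 in polysome libraries A and B (log2 ratio 3.39 ± 0.59 (SE), adjusted p = 5.73e-05). RPS21 had 11296 and 13671 CPM in monosomes, against 1760.2 and 939 in polysomes (log2 ratio 3.34 ± 0.61 (SE), adjusted p = 0.000105), and RPS28 had 1388 and 1117 CPM in monosomes, against 174 and 69.8 in polysomes (log2 ratio 3.53, adjusted p = 1.68e-06). In each of these 3 genes of the small subunit the monosome libraries were alike and the polysome libraries lower. RPS29 had a ratio of 1.30 (adjusted p = 0.0381), lost without the letter term (adjusted p = 0.197) and in the 4 libraries alone (adjusted p = 0.168), and each fit without 1 log phase library called 3 small subunit genes higher.

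On the polysome side RPL36AL had 72.3 and 60.4 CPM in monosome libraries A and B, against 711 and 185 in polysome libraries A and B (log2 ratio -2.52 ± 0.45 (SE), adjusted p = 8.37e-05). RPL23A had 599.8 and 384 CPM in monosomes, against 3086 and 1170.1 in polysomes (log2 ratio -2.01, adjusted p = 0.00105), a call that was lost without the letter term (adjusted p = 0.0508). RPS7 had 499 and 453 CPM in monosomes, against 2924 and 1272 in polysomes (log2 ratio -2.03, adjusted p = 0.000979), lost with the 4 libraries alone (adjusted p = 0.0513). In all 3 genes polysome library A was well above polysome library B. Taken over the lists, the A libraries gave medians of -0.94 and -0.74 for large and small subunit genes, and the B libraries -0.0033 and 0.10. Large subunit genes took 5.97 and 8.86% of coding footprints in monosomes A and B, against 9.41 and 6.54% in polysomes A and B. Small subunit genes took 5.20 and 6.07%, against 5.26 and 4.37%. In both lists the monosome share was thus the smaller one in A and the larger one in B. The number of lower large subunit genes was 2, 11, 5 and 11 without monosome A, monosome B, polysome A and polysome B in turn, and that of lower small subunit genes 1, 2, 1 and 3. Without the letter term 2 large and 1 small subunit genes were lower, and in the 4 libraries alone 2 and 0.

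Other genes with 5′TOP mRNAs had a median on the monosome side. Of 16 tested, 8 were higher and 1 was lower, with a median of 0.99 (0.62 in the A and 0.75 in the B libraries). PABPC1, the poly(A)-binding protein, had 383 and 1046 CPM in monosome libraries A and B, against 61.4 and 126 in polysome libraries A and B (log2 ratio 2.82 ± 0.45 (SE), adjusted p = 1.88e-05), and was lost without the letter term (adjusted p = 0.0562). EEF2, the factor that moves the ribosome along, had 1113 and 3225 CPM in monosomes, against 514 and 988 in polysomes (log2 ratio 1.37, adjusted p = 0.0416), and TPT1, a small growth-related protein, had 491 and 1048 CPM in monosomes, against 403 and 313 in polysomes (log2 ratio 1.11, adjusted p = 0.0374). BTF3, which shields chains that leave the ribosome, was the lower member, with 1799.5 and 1394 CPM in monosomes, against 5335 and 4489 in polysomes (log2 ratio -1.63, adjusted p = 0.0113). EEF1A1, which delivers aminoacyl-tRNA, had 2146 and 3099 CPM in monosomes, against 1314 and 1471 in polysomes and did not pass (log2 ratio 0.88, adjusted p = 0.135). The calls of EEF2, TPT1 and BTF3 did not pass without the letter term (adjusted p = 0.303, adjusted p = 0.161 and adjusted p = 0.103) nor in the 4 libraries alone (adjusted p = 0.133, adjusted p = 0.24 and adjusted p = 0.16). Without polysome library B the ratios were 0.98 for EEF2, 0.88 for TPT1 and -1.42 for BTF3, and all 3 calls were lost (adjusted p = 0.308, adjusted p = 0.263 and adjusted p = 0.0987). Without monosome library B the ratio of TPT1 was smaller still (log2 ratio 0.35, adjusted p = 0.608). The list as a whole had 1 higher and 0 lower without the letter term, 2 and 0 in the 4 libraries alone, and 4, 5, 3 and 2 higher and 0, 0, 1 and 0 lower without monosome A, monosome B, polysome A and polysome B in turn.

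The starts of 6 of these genes are shown because genes with the same kind of start lay on different sides. Each is 10 bases before and 20 bases from the RefSeq transcription start (GRCh38.p14), 5′ to 3′, with the run of pyrimidines from the start in capitals.
RPL41, chr12:56116623-56116652, plus strand: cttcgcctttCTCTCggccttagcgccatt
RPS12, chr6:132814559-132814588, plus strand: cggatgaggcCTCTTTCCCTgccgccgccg
EEF2, chr19:3985444-3985473, minus strand: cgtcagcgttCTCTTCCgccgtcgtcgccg
TPT1, chr13:45341164-45341193, minus strand: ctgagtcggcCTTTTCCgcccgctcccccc
EEF1A1, chr6:73521013-73521042, minus strand: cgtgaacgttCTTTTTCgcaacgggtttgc
BTF3, chr5:73498432-73498461, plus strand: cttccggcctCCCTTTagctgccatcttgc
In the fit of 12 libraries with the block RPL41, RPS12, EEF2 and TPT1 were higher in monosomes, EEF1A1 did not pass and BTF3 was lower. The calls of EEF2, TPT1 and BTF3 were lost without the letter term and in the 4 libraries alone. RPL41 and RPS12 do not stand for the 41 ribosomal protein genes with such starts, of which 3 were higher and 6 were lower. Both shares were smaller than those of all genes.

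A start of this kind was defined by its letters as a C followed by at least 4 bases that are C or T, read on the gene's own strand, and it occurs in 1429 of 35116 promoters of the table (4.07%). Of 3765 tested genes with a promoter, 341 have it (9.06%). Of these 61 were higher and 49 were lower in monosomes, with a median of 0.02, while of the 3424 other genes 546 were higher and 639 were lower (median -0.12). In the A and B libraries apart the medians were -0.21 and 0.23 with such a start, against -0.20 and -0.07 without it. Among ribosomal protein genes the 41 with such a start had 3 higher and 6 lower members and a median of -0.49. These are 7.3 and 14.6%, beside 16.5 and 17.9% of all genes. The 18 without it had 2 higher and 5 lower members and a median of -0.36. The A libraries gave medians of -0.84 with and -0.55 without such a start, and the B libraries 0.16 and 0.14. The sign of both medians thus depended on the letter. A match is a description of the annotated start and no measure of which start HEK293 cells use.

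Initiation factors were divided between the fractions. Of 38 tested, 8 were higher and 9 were lower in monosomes, with a median of 0.03, which was -0.21 without monosome library A. The counts were 2 higher and 4 lower without the letter term, 2 and 3 in the 4 libraries alone, and 4, 5, 4 and 3 higher and 7, 7, 8 and 6 lower without monosome A, monosome B, polysome A and polysome B in turn. EIF1AX, which helps the small subunit scan for a start codon, had 209.6 and 324 CPM in monosome libraries A and B, against 1308 and 1687 in polysome libraries A and B (log2 ratio -2.5001 ± 0.44 (SE), adjusted p = 7.44e-05). EIF2S2, the beta subunit of the factor that carries the initiator tRNA, had 108 and 98.8 CPM in monosomes, against 441 and 512 in polysomes (log2 ratio -2.20 ± 0.40 (SE), adjusted p = 0.000115). Both monosome libraries lay below both polysome libraries in these genes. EIF3E, a subunit of the scaffold factor eIF3, lay on the other side with 784 and 1051 CPM in monosomes, against 268 and 277 in polysomes (log2 ratio 1.73, adjusted p = 0.00113). Other eIF3 subunits were found on both sides, EIF3A (1.32), EIF3L (1.26) and EIF3D (1.12) higher and EIF3G (-1.57), EIF3I (-1.42) and EIF3J (-1.32) lower. None of these 6 passed without the letter term (adjusted p = 0.282, adjusted p = 0.126, adjusted p = 0.265, adjusted p = 0.0593, adjusted p = 0.0924 and adjusted p = 0.109) or in the 4 libraries alone. The called frames of EIF3A, EIF3D, EIF3E and EIF3L have 446 to 760 codons and those of EIF3G, EIF3I and EIF3J 232 to 325.

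Genes of ribosome assembly in the nucleolus were also divided, with 8 higher and 5 lower of 27 (median 0.31). This list had 2 higher and 1 lower without the letter term, 5 and 1 in the 4 libraries alone, and 5, 7, 5 and 6 higher and 2, 3, 4 and 3 lower without monosome A, monosome B, polysome A and polysome B in turn. NOP56, a core protein of box C/D snoRNPs, had 318 and 401 CPM in monosomes, against 46.5 and 84.7 in polysomes (log2 ratio 2.51 ± 0.40 (SE), adjusted p = 2.07e-05). NOP58, its partner, had 224 and 349 CPM in monosomes, against 57.6 and 113 in polysomes (log2 ratio 1.79, adjusted p = 0.000716), a call lost without the letter term (adjusted p = 0.0773). FBL, the methyltransferase of the same particle, lay on the opposite side with 209.6 and 327 CPM in monosomes, against 668 and 1199.9 in polysomes (log2 ratio -1.78, adjusted p = 0.00207), and it too was lost without that term (adjusted p = 0.0562). Proteins of 1 particle thus lay on both sides. Of 17 tRNA synthetases and their partners, 1 was higher and 2 were lower, and all 3 calls (QARS1, AIMP2 and WARS1) were lost without the letter term (adjusted p = 0.136, adjusted p = 0.102 and adjusted p = 0.115) and without polysome library B (adjusted p = 0.0912, adjusted p = 0.188 and adjusted p = 0.166).

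Nuclear genes of the mitochondrial respiratory chain included some of the strongest cases on either side. Complexes II to V, which pass electrons on and make ATP, had 5 higher and 17 lower members of 36 (median -0.83), and complex I, the NADH dehydrogenase, had 6 higher and 12 lower of 31 (median -0.52). Among the higher members of complexes II to V were small subunits. UQCRQ, of complex III, had 2548 and 2492 CPM in monosome libraries A and B, against 184 and 70.3 in polysome libraries A and B (log2 ratio 4.52 ± 0.53 (SE), adjusted p = 1.13e-07), and ATP5ME, of ATP synthase, had 2059.7 and 1888 CPM in monosomes, against 348 and 104 in polysomes (log2 ratio 3.43, adjusted p = 5.48e-06). Their called frames have 34 and 30 codons. ATP5MK (3.19) and UQCR10 (1.43) were also higher, UQCR10 not without the letter term (adjusted p = 0.107).

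The lower members included subunits that hold redox centres. UQCRFS1, the Rieske iron-sulfur protein of complex III, had 90.3 and 85.1 CPM in monosomes, against 659 and 373 in polysomes (log2 ratio -2.51 ± 0.43 (SE), adjusted p = 4.97e-05), and CYC1, cytochrome c1, had 83.1 and 90.6 CPM in monosomes, against 468 and 304 in polysomes (log2 ratio -2.10 ± 0.42 (SE), adjusted p = 0.000287). NDUFS5, an accessory subunit of complex I, had 296 and 266 CPM in monosome libraries A and B, against 3007 and 1277 in polysome libraries A and B (log2 ratio -2.80 ± 0.48 (SE), adjusted p = 4.75e-05). NDUFA13 (-2.57) and NDUFS4 (-2.51) were lower as well. NDUFV3 was higher, with 361 and 453 CPM in monosomes, against 149 and 95.03 in polysomes (log2 ratio 1.81, adjusted p = 0.000755). The fractions did not overlap in any of these genes. Complexes II to V had 4 higher and 5 lower without the letter term, 4 and 6 in the 4 libraries alone, and 5, 4, 4 and 4 higher and 5, 14, 13 and 14 lower without monosome A, monosome B, polysome A and polysome B in turn. Complex I had 1 higher and 6 lower without the letter term, 3 and 7 in the 4 libraries alone, and 6, 2, 6 and 2 higher and 6, 11, 8 and 10 lower without monosome A, monosome B, polysome A and polysome B in turn.

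Proteins of the mitochondrial ribosome were divided, with 8 higher and 21 lower of 68 (median -0.64). Of 45 large subunit members 17 were lower and 6 were higher, and of the 23 others 4 were lower and 2 were higher. MRPL57 had 564 and 475 CPM in monosomes, against 52.9 and 28.4 in polysomes (log2 ratio 3.75 ± 0.44 (SE), adjusted p = 1.52e-07), and MRPL33 had 1807 and 834 CPM in monosomes, against 159 and 58.1 in polysomes (log2 ratio 3.65, adjusted p = 3.66e-07), over called frames of 75 and 66 codons. MRPS23 had 43.4 and 41.2 CPM in monosomes, against 171 and 250.0 in polysomes (log2 ratio -2.31 ± 0.45 (SE), adjusted p = 0.000216), and MRPL19 had 32.5 and 30.2 CPM in monosomes, against 179 and 127 in polysomes (log2 ratio -2.27, adjusted p = 0.000222). The list had 2 higher and 11 lower without the letter term, 6 and 12 in the 4 libraries alone, and 8, 4, 6 and 6 higher and 12, 20, 16 and 17 lower without monosome A, monosome B, polysome A and polysome B in turn. Of 15 genes of protein import, 3 were higher and 5 were lower, beside 1 higher and 2 lower without the letter term, 2 and 2 in the 4 libraries alone, and 2, 3, 2 and 2 higher and 2, 5, 2 and 4 lower without monosome A, monosome B, polysome A and polysome B in turn. TOMM7, a small stabilising subunit of the outer membrane pore, had 2045 and 1298 CPM in monosomes, against 91.9 and 42.3 in polysomes (log2 ratio 4.73 ± 0.46 (SE), adjusted p = 4.65e-09). The inner membrane channel genes TIMM17A (119 and 82.3 CPM in monosomes, against 838 and 315 in polysomes, log2 ratio -2.37, adjusted p = 7.14e-05) and TIMM23 (79.5 and 65.9 CPM in monosomes, against 354 and 320.2 in polysomes, log2 ratio -2.22, adjusted p = 8.35e-05) lay on the polysome side.

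Genes of the mitochondrial chromosome itself took a larger share of the monosome libraries. Frames on it held 4.56 and 7.07% of all footprints in monosome libraries A and B, against 0.0753 and 0.260% in polysome libraries A and B. Each of its 13 protein genes had a larger share in both monosome libraries than in the polysome library of the same letter, by 3.67 to 428 times. The ATP synthase subunit gene MT-ATP6 held 1.40 and 1.28% in monosomes, against 0.00722 and 0.00763% in polysomes. The oxidase subunit gene MT-COX1 held 0.742 and 1.59% in monosomes, against 0.0259 and 0.108% in polysomes. MT-ND6, encoded on the opposite strand from the other 12, had the smallest gap, with 0.0148 and 0.0768% in monosomes, against 0.00207 and 0.0209% in polysomes, and its monosome A value lay below polysome B. Strand was ignored when frames were assigned to these genes. With 2 libraries in each fraction no exact test of such shares can reach 0.05, and none was made. A composite identifier on this chromosome was part of the coding set, with 8.32 and 5.17% of coding footprints in monosomes, against 0.0297 and 0.0779% in polysomes (log2 ratio 6.85 ± 1.03 (SE), adjusted p = 8.5e-06).

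The share of footprints on coding frames was lower in monosomes. It was 24.02 and 44.5% of all footprints in monosome libraries A and B, against 69.2 and 56.9% in polysome libraries A and B. A 9 nt frame inside another gene's coding region on chromosome 12 alone held 47.9% of monosome library A, 0.721% of monosome library B and almost none of the polysome libraries. With this frame and a 6 nt frame on a non-coding RNA left out, the coding share was 47.7 and 44.8% in monosomes, against 69.2 and 56.9% in polysomes. Frames on non-coding RNAs then held 22.8 and 27.2% in monosomes, against 13.7 and 17.0% in polysomes. Orphan frames, which the caller ties to no annotated gene part, held 4.59 and 4.30% in monosomes, against 0.815 and 1.58% in polysomes. Frames on the mitochondrial chromosome are counted within the classes too, so its share is not separate from theirs. Upstream frames, in the 5′ leader, held 4.25 and 5.72% in monosomes, against 2.56 and 4.83% in polysomes, so monosome A lay below polysome B. With these 2 frames left out, the coding and non-coding RNA shares did not overlap between fractions. With all frames kept, non-coding RNAs held 13.19 and 27.03% in monosomes, against 13.67 and 16.95% in polysomes. Monosome A then lay below both polysome libraries.

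**Figure D5:**
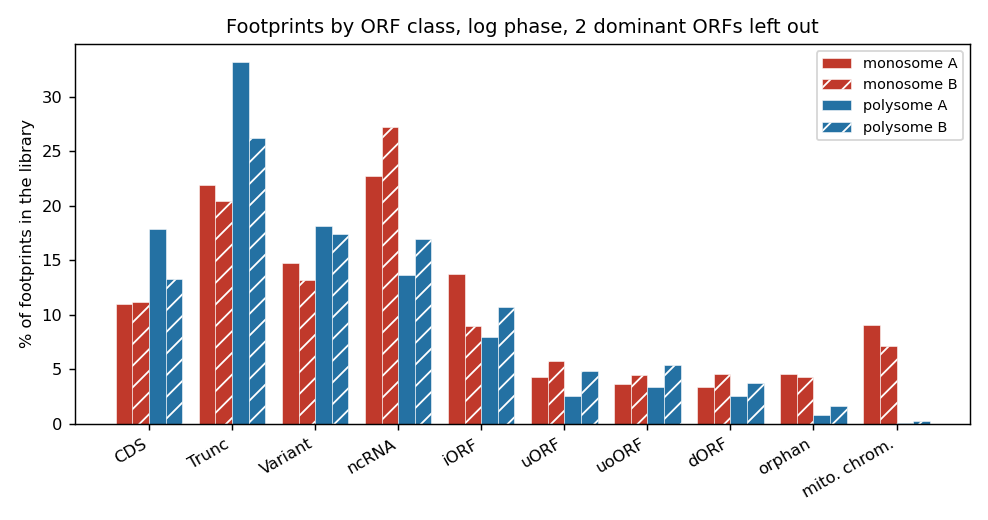
Share of footprints by class of reading frame in each log phase library, with monosomes in red and polysomes in blue, without the 9 nt and the 6 nt frame. The 3 coding classes (CDS, Trunc, Variant) are lower in both monosome libraries, and ncRNA, orphan and mitochondrial chromosome frames are higher. Mitochondrial chromosome frames are also counted within the other classes, so these bars overlap.

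Every replication-dependent histone gene that passed was lower in monosomes. These mRNAs end in a stem-loop and have no poly(A) tail, and they are used in bulk while DNA is copied. Of 51 tested, 34 were lower and 0 were higher (median -1.68, -1.87 in the A and -1.27 in the B libraries). Together they took 5.13 and 4.25% of coding footprints in monosome libraries A and B, against 14.2 and 9.95% in polysome libraries A and B. By class, 3 of 3 H1, 8 of 13 H2A, 8 of 15 H2B, 6 of 8 H3 and 9 of 12 H4 genes were lower. Medians ran from -1.27 for H2A to -2.83 for H1. Both monosome libraries lay below both polysome libraries for 37 of the 51 genes.

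H1-1, a linker histone that clamps DNA onto the nucleosome, had 25.3 and 16.5 CPM in monosomes, against 192 and 109.9 in polysomes (log2 ratio -2.83 ± 0.47 (SE), adjusted p = 2.84e-05), and H1-3 had 57.8 and 46.7 CPM in monosomes, against 326 and 417 in polysomes (log2 ratio -2.86 ± 0.44 (SE), adjusted p = 1.18e-05). H3C7 had 296 and 148 CPM in monosome libraries A and B, against 2725 and 778 in polysome libraries A and B (log2 ratio -2.80 ± 0.47 (SE), adjusted p = 3.34e-05). Core histone genes of 1 class are near-identical, and the caller divides shared footprints among them, so single core genes are uncertain and do not count as separate evidence. Of the 51, 11 passed without the letter term and 14 in the 4 libraries alone, and 17, 27, 18 and 31 without monosome A, monosome B, polysome A and polysome B in turn. Histone variants with poly(A) tails were also divided. H3-3A had 65.04 and 54.9 CPM in monosomes, against 579 and 303 in polysomes (log2 ratio -2.79 ± 0.42 (SE), adjusted p = 8.73e-06), and H3-3B had 75.9 and 54.9 CPM in monosomes, against 748 and 238 in polysomes (log2 ratio -2.70 ± 0.45 (SE), adjusted p = 3.29e-05). H2AZ2 was higher in monosomes, with 856 and 546 CPM in monosomes, against 245 and 81.5 in polysomes (log2 ratio 2.26, adjusted p = 0.00012), but not without the letter term (adjusted p = 0.0672).

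The proteasome, the protease that breaks down ubiquitin-tagged proteins, had 12 lower and 0 higher members of 37, with a median of -0.81 (-0.26 in the A and -1.23 in the B libraries). The lower members numbered 8 without the letter term, 7 in the 4 libraries alone, and 11, 8, 12 and 9 without monosome A, monosome B, polysome A and polysome B in turn. The beta ring of the core holds the active sites. All 6 tested PSMB genes were lower, with ratios from -2.72 to -1.80, and all 6 also passed without the letter term and in the 4 libraries alone. PSMB2 had 112 and 96.1 CPM in monosome libraries A and B, against 651 and 714 in polysome libraries A and B (log2 ratio -2.72 ± 0.42 (SE), adjusted p = 1.24e-05), and PSMB1 had 459 and 379 CPM in monosomes, against 2814 and 1770.1 in polysomes (log2 ratio -2.41 ± 0.46 (SE), adjusted p = 0.000174). PSMB5, an active-site subunit, had 93.9 and 87.8 CPM in monosomes, against 350.0 and 673 in polysomes (log2 ratio -2.45 ± 0.44 (SE), adjusted p = 8.76e-05). In each the monosome libraries were close to each other and well below the polysome libraries.

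The other rings and the cap were less uniform. Of 7 alpha subunit (PSMA) genes 3 were lower (median -0.88). Of the 6 PSMC genes, the ATPases of the cap, 0 passed, with a median of 0.30 and ratios from -0.81 to 0.70. Of 12 PSMD genes 2 were lower (median -0.63). The split by subunit family was made after the values were seen and has no test of its own.

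Prefoldin had 7 lower members of 9 and 1 higher (median -1.19). PFDN1 (-1.06), PFDN2 (-1.34), PFDN5 (-1.31), PFDN6 (-2.89) and VBP1 (-1.18), of the ring itself, were lower. The list had 0 higher and 1 lower without the letter term, 0 and 1 in the 4 libraries alone, and 1, 1, 0 and 0 higher and 1, 6, 1 and 5 lower without monosome A, monosome B, polysome A and polysome B in turn, and without the letter term PFDN6 was the lower member. PFDN5 had ratios of -0.78 without monosome library A and -0.78 without polysome library A. Chaperones of the cytosol and of mitochondria had a median on the monosome side, with 9 higher and 3 lower of 28 (median 0.67, 0.17 without monosome library A). Chaperones numbered 1 higher and 1 lower without the letter term, 4 and 2 in the 4 libraries alone, and 3, 9, 5 and 4 higher and 3, 1, 3 and 3 lower without monosome A, monosome B, polysome A and polysome B in turn. BAG1, a nucleotide exchange factor of HSP70, had 141 and 154 CPM in monosomes, against 40.99 and 18.5 in polysomes (log2 ratio 2.42 ± 0.43 (SE), adjusted p = 7.12e-05). HSPA8, the constitutive HSP70, had 520.3 and 659 CPM in monosomes, against 167 and 260.3 in polysomes (log2 ratio 1.4995, adjusted p = 0.00434), lost without the letter term (adjusted p = 0.121) and without monosome library A (log2 ratio 1.21, adjusted p = 0.0615) or polysome library B (log2 ratio 1.41, adjusted p = 0.0622). HSPA9 (1.67), HSPD1 (1.36), HSP90AB1 (1.30), CCT2 (1.12) and CCT3 (1.22) were also higher, and HSPA1A and HSPA1B too, whose near-identical sequences cannot be parted. None of these 7 passed without the letter term (adjusted p = 0.188, adjusted p = 0.257, adjusted p = 0.201, adjusted p = 0.237, adjusted p = 0.215, adjusted p = 0.143 and adjusted p = 0.127), and BAG1 was the chaperone gene that did on the monosome side. AHSA1, which stimulates HSP90, was lower, with 123 and 154 CPM in monosomes, against 403 and 789.6 in polysomes (log2 ratio -2.06 ± 0.42 (SE), adjusted p = 0.000359).

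Selenoproteins had the highest median of the 33 lists, 1.10, with 7 higher and 2 lower members of 12. The numbers were 3 higher and 1 lower without the letter term, 4 and 1 in the 4 libraries alone, and 4, 4, 5 and 4 higher and 1, 1, 1 and 2 lower without monosome A, monosome B, polysome A and polysome B in turn. They insert selenocysteine at a UGA codon, which needs a dedicated element in the mRNA. GPX4, the enzyme that reduces lipid peroxides in membranes, had 4907 and 2294 CPM in monosome libraries A and B, against 128 and 77.5 in polysome libraries A and B (log2 ratio 5.09 ± 0.51 (SE), adjusted p = 7.89e-09; chr19:1104915-1106572, plus strand, hg38). GPX1, the cytosolic glutathione peroxidase, had 567 and 359.5 CPM in monosome libraries A and B, against 39.5 and 28.8 in polysome libraries A and B (log2 ratio 3.74 ± 0.41 (SE), adjusted p = 4.51e-08). Both monosome libraries were far above both polysome libraries in these genes. SELENOM (log2 ratio 2.89, adjusted p = 0.000135) and SELENOK (log2 ratio 1.07, adjusted p = 0.0452), of the endoplasmic reticulum, and MSRB1 (log2 ratio 1.13, adjusted p = 0.0425), which repairs oxidised methionine, were higher too, but not without the letter term (adjusted p = 0.0864, adjusted p = 0.342 and adjusted p = 0.187), and SELENOK and MSRB1 not in the 4 libraries alone (adjusted p = 0.115 and adjusted p = 0.0871). SELENOW had 47.0 and 43.9 CPM in monosomes and only 2.8 footprints in both polysome libraries together, so its ratio has no size. TXNRD1, thioredoxin reductase, was lower with 83.1 and 143 CPM in monosomes, against 223 and 327 in polysomes (log2 ratio -1.30, adjusted p = 0.0113), but not without the letter term (adjusted p = 0.137) nor without monosome library A (log2 ratio -1.24, adjusted p = 0.0731), monosome library B (log2 ratio -1.39, adjusted p = 0.0554) or polysome library A (log2 ratio -1.28, adjusted p = 0.0619).

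Peroxiredoxins, thioredoxins and other redox enzymes were divided, with 2 higher and 5 lower of 12 (median -0.68). There were 1 higher and 2 lower without the letter term, 1 and 2 in the 4 libraries alone, and 2, 1, 1 and 1 higher and 2, 4, 4 and 3 lower without monosome A, monosome B, polysome A and polysome B in turn. SOD1, the cytosolic superoxide dismutase, had 622 and 648 CPM in monosome libraries A and B, against 4768 and 4368 in polysome libraries A and B (log2 ratio -2.84 ± 0.50 (SE), adjusted p = 7.05e-05). PRDX1, a peroxiredoxin, had 376 and 357 CPM in monosomes, against 1201 and 3610.4 in polysomes (log2 ratio -2.58 ± 0.54 (SE), adjusted p = 0.000523). GLRX5, a mitochondrial glutaredoxin of iron-sulfur cluster assembly, was higher with 1976 and 1298 CPM in monosome libraries A and B, against 131 and 49.99 in polysome libraries A and B (log2 ratio 4.30 ± 0.47 (SE), adjusted p = 3.92e-08). SOD1 and GPX4 have called frames of similar length, 153 and 174 codons, and lay at opposite ends.

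Small GTPases, which switch membrane traffic, the cytoskeleton and growth signals, had 20 lower and 4 higher members of 37 (median -1.13). The A and B libraries gave similar medians, -1.22 and -1.36, and the list median when single libraries were left out was between -1.39 and -1.28. RAB1A, which acts between endoplasmic reticulum and Golgi, had 32.5 and 30.2 CPM in monosome libraries A and B, against 129 and 288 in polysome libraries A and B (log2 ratio -2.69 ± 0.49 (SE), adjusted p = 0.000104), and RAB21, of early endosomes, had 14.5 and 27.4 CPM in monosomes, against 104 and 114 in polysomes (log2 ratio -2.37 ± 0.46 (SE), adjusted p = 0.000239). RAB7A (-2.22), RAB10 (-2.07), RAB11A (-1.93), RHOA (-1.88) and RHOB (-1.97) were lower too, RAB7A not without the letter term (adjusted p = 0.0518) and RHOA not in the 4 libraries alone (adjusted p = 0.0506). HRAS, of growth signalling, was higher with 195 and 98.8 CPM in monosomes, against 47.9 and 22.5 in polysomes (log2 ratio 2.07, adjusted p = 0.000258). RAB4A was also higher, with 369 and 266 CPM in monosomes, against 115 and 33.3 in polysomes (log2 ratio 2.29, adjusted p = 8.35e-05), though not without the letter term (adjusted p = 0.0531). The GTPases numbered 1 higher and 12 lower without the letter term, 3 and 14 in the 4 libraries alone, and 4, 4, 4 and 3 higher and 15, 13, 17 and 18 lower without monosome A, monosome B, polysome A and polysome B in turn.

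Sm and LSm proteins, small ring-forming partners of spliceosomal and decay RNAs, listed here with other proteins of the spliceosomal snRNPs, had 8 higher and 5 lower of 18 (median 0.96). They numbered 3 higher and 1 lower without the letter term, 6 and 2 in the 4 libraries alone, and 8, 6, 6 and 5 higher and 3, 4, 4 and 5 lower without monosome A, monosome B, polysome A and polysome B in turn. LSM4 had 1229 and 579 CPM in monosome libraries A and B, against 77.5 and 26.6 in polysome libraries A and B (log2 ratio 4.21 ± 0.46 (SE), adjusted p = 3.45e-08), and LSM5 had 2128 and 1276 CPM in monosomes, against 193 and 64.9 in polysomes (log2 ratio 3.86 ± 0.47 (SE), adjusted p = 2.42e-07), with LSM3 (2.39), LSM6 (1.99), LSM2 (1.95) and LSM1 (1.44) also higher. SNRPD3, an Sm core protein, had 304 and 252 CPM in monosomes, against 2297 and 1219.7 in polysomes (log2 ratio -2.59 ± 0.46 (SE), adjusted p = 7.14e-05), with SNRPD1 (-1.71), SNRPF (-1.74), SNRPB2 (-2.72) and SNRPC (-1.68) also lower, while SNRNP70 (1.73) and SNRPA (1.28) were higher. Of those given by ratio alone, LSM3 held without the letter term, and LSM6, LSM2, LSM1, SNRPD1, SNRPF, SNRPB2, SNRPC, SNRNP70 and SNRPA did not (adjusted p = 0.111, adjusted p = 0.214, adjusted p = 0.237, adjusted p = 0.0773, adjusted p = 0.0772, adjusted p = 0.0562, adjusted p = 0.0588, adjusted p = 0.255 and adjusted p = 0.309). Without monosome library B the call of SNRPB2 was lost (log2 ratio -1.81, adjusted p = 0.147), and the ratio of LSM3 was 1.51. Among 14 SR splicing factors 2 were higher and 5 were lower, beside 0 higher and 1 lower without the letter term, 1 and 1 in the 4 libraries alone, and 0, 2, 0 and 2 higher and 4, 2, 5 and 3 lower without monosome A, monosome B, polysome A and polysome B in turn, and SRSF1, which binds exonic enhancers, had 275 and 255 CPM in monosomes, against 1167 and 999.9 in polysomes (log2 ratio -2.02, adjusted p = 0.000439).

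Genes of protein entry into the endoplasmic reticulum were divided as well. TMEM258, of the oligosaccharyltransferase, had 1026 and 1466 CPM in monosomes, against 114 and 109.9 in polysomes (log2 ratio 3.51 ± 0.48 (SE), adjusted p = 1.53e-06), and SEC11C, of the signal peptidase, had 202 and 203 CPM in monosomes, against 75.02 and 25.7 in polysomes (log2 ratio 2.14, adjusted p = 0.000253). KRTCAP2 (2.11) was higher too, while SRP14 (-1.66), SERP1 (-1.45), SSR2 (-1.31) and DAD1 (-1.14) were lower, so the list had 4 higher and 4 lower of 25. All 4 higher calls and 0 of the lower ones held without the letter term and in the 4 libraries alone, and the list had 4, 4, 4 and 4 higher and 0, 6, 1 and 2 lower members without monosome A, monosome B, polysome A and polysome B in turn. The 4 lower genes had adjusted p = 0.0715, adjusted p = 0.133, adjusted p = 0.0775 and adjusted p = 0.176 without the letter term, and without monosome library A the ratio of SERP1 was -0.90. Among 16 folding factors of this compartment 4 were higher and 2 were lower, the higher ones including the chaperones HSP90B1 (log2 ratio 1.54, adjusted p = 0.00541) and HSPA5 (log2 ratio 1.37, adjusted p = 0.00976), both lost without the letter term (adjusted p = 0.12 and adjusted p = 0.107), without monosome library A (adjusted p = 0.103 and adjusted p = 0.232) and without polysome library B (adjusted p = 0.0655 and adjusted p = 0.0886). HSPA5 had a ratio of 0.80 without monosome library A. The folding factors numbered 0 higher and 0 lower without the letter term, 1 and 0 in the 4 libraries alone, and 0, 4, 2 and 1 higher and 0, 1, 0 and 1 lower without monosome A, monosome B, polysome A and polysome B in turn.

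Among 14 tested genes of stress responses and of upstream-frame control, 3 were higher and 2 were lower (median -0.23). Stress genes numbered 1 higher and 0 lower without the letter term, 3 and 0 in the 4 libraries alone, and 3, 3, 3 and 3 higher and 0, 1, 0 and 2 lower without monosome A, monosome B, polysome A and polysome B in turn. ATF4, a transcription factor that the integrated stress response induces, whose upstream frames hold back its coding frame in fed cells, had 361 and 357 CPM in monosome libraries A and B, against 150.3 and 45.04 in polysome libraries A and B (log2 ratio 2.09 ± 0.42 (SE), adjusted p = 0.000303), lost without the letter term (adjusted p = 0.0646). Its upstream frames took 41.6 and 22.9% of its upstream and coding footprints in monosomes, against 44.8 and 41.0% in polysomes. CEBPG, a partner of ATF4, had 195 and 87.8 CPM in monosomes, against 48.7 and 9.46 in polysomes (log2 ratio 2.47, adjusted p = 0.0001), likewise lost without that term (adjusted p = 0.1). XBP1 had 21.7 footprints in both monosome libraries together on a called frame of 3 codons and 1.9 in polysomes, so no size is given. PPP1R15B, a phosphatase subunit, had 82.6 and 97.5% of its footprints on upstream frames in monosomes, against 98.6 and 98.8% in polysomes. Its coding frame held only 2.9 and 0.9 footprints in monosomes, against 9 and 3.3 in polysomes.

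Growth regulators were divided too, with 2 higher and 3 lower of 14. ID3, an inhibitor of basic helix-loop-helix factors, had 79.5 and 38.4 CPM in monosomes, against 435 and 257 in polysomes (log2 ratio -2.57 ± 0.50 (SE), adjusted p = 0.000222), and its relatives ID4 (-1.77) and ID2 (-1.52) were lower as well, ID2 not without the letter term (adjusted p = 0.13) nor without monosome or polysome library A (adjusted p = 0.248 and adjusted p = 0.141). MYC had 1301 and 1732 CPM in monosomes, against 579.8 and 1139.5 in polysomes and did not pass (log2 ratio 0.86, adjusted p = 0.142). Of 16 ubiquitin-like proteins and ligase subunits 4 were higher and 5 were lower, beside 2 higher and 0 lower without the letter term, 3 and 1 in the 4 libraries alone, and 3, 3, 3 and 2 higher and 0, 4, 1 and 3 lower without monosome A, monosome B, polysome A and polysome B in turn. SUMO3, a ubiquitin-like modifier, had 867 and 458 CPM in monosomes, against 61.9 and 32.4 in polysomes (log2 ratio 3.82 ± 0.41 (SE), adjusted p = 3.12e-08), and ANAPC11, the RING subunit of the anaphase-promoting complex, had 921 and 549 CPM in monosomes, against 152 and 72.97 in polysomes (log2 ratio 2.77, adjusted p = 1.35e-05).

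A few abundant household genes serve as a comparison. GAPDH, of glycolysis, had 336 and 349 CPM in monosomes, against 322 and 940.4 in polysomes (log2 ratio -0.70, adjusted p = 0.196), and ACTB, beta-actin, had 611 and 607 CPM in monosomes, against 759.6 and 2263 in polysomes (log2 ratio -1.17, adjusted p = 0.0634). NCL, nucleolin, had 513 and 889 CPM in monosomes, against 271 and 1200.3 in polysomes (log2 ratio 0.31, adjusted p = 0.627), and TUBA1B, an alpha-tubulin, had 260.2 and 184 CPM in monosomes, against 241 and 350.0 in polysomes (log2 ratio -0.35, adjusted p = 0.515). None of these 4 passed, although ACTB did without polysome library A (log2 ratio -1.73, adjusted p = 0.0305), and in GAPDH, NCL and TUBA1B the fractions overlapped. Within glycolysis TPI1 was an exception, with 376 and 368 CPM in monosome libraries A and B, against 3107 and 1929.5 in polysome libraries A and B (log2 ratio -2.70 ± 0.48 (SE), adjusted p = 7.08e-05). Of 10 glycolytic genes 0 were higher and 2 were lower, TPI1 and PGAM1 (-1.87).

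C2H2 zinc finger genes, a large family of DNA-binding proteins here taken by name, had 10 higher and 1 lower members of 73, with a median of 0.72. The choice by name also took in ZBTB8OS, which is not a zinc finger gene and is counted among the higher members. Their share of higher members, 13.7%, was below the 16.5% of all genes although the median was above that of all genes. The zinc finger genes numbered 1 higher and 0 lower without the letter term, 5 and 0 in the 4 libraries alone, and 5, 4, 6 and 4 higher and 0, 0, 0 and 0 lower without monosome A, monosome B, polysome A and polysome B in turn. Of 14 tested cholesterol synthesis genes 0 passed (edgeR quasi-likelihood test, smallest adjusted p = 0.073 for PMVK). The replication fork, mitotic regulator, hnRNP, nucleotide synthesis, tubulin and actin lists had 1 or 2 higher members and 0 to 4 lower ones each. Their medians lay between -0.34 and -0.07, and those of the hnRNP, nucleotide synthesis and tubulin and actin lists turned positive with RLE or library-size scaling. PRPS1, which makes the ribose donor of nucleotides, was lower with 46.98 and 41.2 CPM in monosomes, against 188 and 389 in polysomes (log2 ratio -2.66 ± 0.45 (SE), adjusted p = 3.67e-05).

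The log phase ratio was also set against the ratios of the starved cells, each condition with its own monosome and polysome libraries. For 0 of 4765 genes (0%) did the log phase ratio differ from the mean of the 2 starvation ratios (edgeR quasi-likelihood interaction test, smallest adjusted p = 0.204), with 304 genes at an unadjusted p under 0.05, and DESeq2 called 45. Side by side, the median ratio of replication-dependent histones was -1.68 in log phase, while it was -0.93 without serum and 1.31 without amino acids. Large subunit ribosomal protein genes had medians of -0.50, 0.02 and 0.92 in the same order, and small GTPases -1.13, -1.25 and -1.10. No difference between conditions is called from these medians.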

How the data were processed

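Ribosome footprints of 12 HEK293 libraries, from 3 conditions and 2 gradient fractions, were analysed from 1 table of 149028 open reading frames. The authors deposited expected counts of footprints for every frame and library, made by the caller PRICE, as the file's title says, and not always whole. The p-value of each frame was also deposited by the authors and served only to form a stricter set (p under 0.0001). The submitters' processing notes list Bowtie 1.0 and hg38 with no role. Per the labels, libraries were amplified by PCR, and no molecular identifiers are named, so floors cover counting error only.

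Where frames overlap, a codon was given to 1 frame, to coding types (CDS, Trunc, Variant) before others, which left 124829 frames, 7031 of them coding, in 6375 genes. Expected counts were summed per gene and rounded. Names came from RefSeq (GRCh38.p14) by position for 6003 genes. As a build check, 4428 of 4429 frame starts inside the promoter table carried the listed start codon. No protein table was used, so length is that of the called frame with most footprints. Column letters A and B served as replicate numbers and no label ties them to the numbered samples. The B minus A deviations correlated between all pairs of groups (r from 0.156 to 0.843), and the letters were taken to pair the libraries. The correlation was high between polysome groups (r from 0.742 to 0.843). It was weak between log phase monosomes and polysomes (r of 0.263), the pair that this comparison uses.

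Genes passing filterByExpr (minimum count 10, minimum total 15) were fitted after TMM scaling in R 4.3.3 with edgeR 4.0.16 (quasi-likelihood test, 6 groups plus letter, 12 libraries, 5 residual degrees of freedom, common biological coefficient of variation 0.272), two-sided, with Benjamini-Hochberg adjustment over 4765 genes. Levels are TMM-scaled footprints in 1000000 coding footprints (CPM), and log2 ratios of single letters use a prior of 0.5. On simulated counts for the log phase comparison (4765 genes, 200 changed) 0, 49.25 and 83.33% of 2-, 4- and 8-fold changes were called, with 0 false among 88 calls. The simulated log phase means held no difference between the letters, so false calls where A and B libraries differ were not measured. Alternatives were the fit without the letter, the log phase libraries alone, DESeq2 1.42.0, other scalings and filters, CDS-type frames alone, thinning and leaving out each library.

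Genes were named by rule: per direction, the 10 with the largest ratio that passed, did not overlap between fractions, averaged 50 or more footprints per library in the higher fraction and had over 3 in sum in the lower one, up to 3 members per direction and list with the smallest p, and 14 chosen genes. Members and lists were chosen with earlier results of these data known. Other list members, named without this rule, were chosen after their values were seen. A few genes that the rule or a list holds are not reported here.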

Additional observations from a re-analysis of the deposited data

Results flagged for a closer look

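Among 172 genes chosen by the naming rule, 15 lay on opposite sides of 0 in log phase and without amino acids, with both letters of each condition on the same side, in 344 comparisons of log phase with either starvation. The difference between these conditions alone was not tested. Against the mean of both starvations none of the 15 passed (edgeR quasi-likelihood interaction test, smallest adjusted p = 0.204), and chance gives some such splits among so many comparisons.

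In the following, the value is the mean log2 ratio of monosomes to polysomes in log phase minus that in amino acid starvation. For 8 genes the log phase ratio was the lower one. The histone H3 genes H3C2 and H3C7 differed by -4.17 and -3.57. H3C2 had ratios of -3.26 and -2.80 in log phase, against 0.94 and 1.35 in amino acid starvation. The ribosomal protein genes followed, RPS18 with -2.35 and RPL22L1 with -2.25, on called frames of 6 and 23 codons. The other 4 were BTF3 with -1.91, SRP14, of the signal recognition particle, with -1.78, PFDN5 with -1.61 and URM1, a ubiquitin-like modifier, with -1.59.

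For 7 genes the log phase ratio was the higher one. PDIA4, a disulfide isomerase with a called frame of 9 codons, differed by 7.34 on few footprints. The early response gene IER5 differed by 3.18, the pyrimidine synthesis genes UMPS and CTPS1 by 2.32 and 2.15, the helicase subunit MCM7 by 2.01, the splicing regulator HNRNPH1 by 1.72 and the mitotic kinase AURKB by 1.49. CTPS1 had ratios of 1.96 and 1.90 in log phase, against -0.07 and -0.37 in amino acid starvation.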

How the results depend on the processing

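Without the letter as replicate block 541 genes differed between the fractions, beside 1639 with it, and 657 did in the 4 log phase libraries alone without the replicate block, beside 853 with it. Thinning every library to the lowest coding total left 818 and CDS-type frames alone gave 303, both with fewer genes tested. The 12 fits that leave out 1 library gave 1004 to 1775 genes, the lowest without log phase monosome library A. A block within each fraction, chosen after seeing the data, gave 2221, and the counts under the other scalings and filters were within 1.5 times of 1639. No named gene changed direction. Of 174 named genes 79 lost their call without the replicate block, 57 in the 4 libraries alone with it, and 34 to 48 without 1 of these libraries. The cause was not tested, but fewer libraries and genes enter several of these fits. The count of genes whose ratio differed from the starved ones was 0 to 41 when single libraries were left out, 45 with DESeq2, 3 with no filter and 104 with the block within each fraction. The coding share differed by -28.8 points (monosomes minus polysomes) and by 1.68 points among frames with a caller p under 0.0001, nearly all of them coding. The share of the mitochondrial chromosome differed by 5.65 points, by 7.92 without frames over 5% of a library, by 3.69 over all frames as deposited, and by 0 in the stricter set. Depth limits the monosome side, where the median gene had 17.2 and 23.2 footprints.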

Other observations

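Genes of DNA copying and of mitosis, which the report gives only as counts, held members on both sides. Of 20 genes in the replication fork list 2 were higher and 4 were lower (beside 16.5 and 17.9% of all genes), with 0 higher and 1 lower without the letter term, 0 and 1 in the 4 libraries alone, and 1, 2, 0 and 1 higher and 2, 2, 2 and 2 lower without monosome A, monosome B, polysome A and polysome B in turn. MCM7, a subunit of the replicative helicase, had 477 and 681 CPM in monosomes, against 118 and 311 in polysomes (log2 ratio 1.59, adjusted p = 0.00311), and MCM3 had a ratio of 1.13. GINS1, of the helicase's activating complex, was lower with 46.98 and 32.9 CPM in monosomes, against 117 and 137 in polysomes (log2 ratio -1.68, adjusted p = 0.00313), as were GINS3 (-1.65) and RFC2 (-1.26), of the clamp loader. Among mitotic regulators PTTG1, securin, had 343 and 252 CPM in monosomes, against 1024 and 683 in polysomes (log2 ratio -1.51, adjusted p = 0.00452), and the checkpoint genes MAD2L1 (-1.55) and BUB3 (-1.10) were lower too. Without the letter term MCM7, MCM3 and PTTG1 did not pass (adjusted p = 0.188, adjusted p = 0.434 and adjusted p = 0.073), nor did MAD2L1, BUB3, GINS3 and RFC2 (adjusted p = 0.107, adjusted p = 0.145, adjusted p = 0.0685 and adjusted p = 0.0849), while GINS1 did (adjusted p = 0.0382), though not without monosome library B (log2 ratio -1.38, adjusted p = 0.0708). Without monosome library A the ratio of MCM3 was 0.46 and its call was lost.

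The ubiquitin-like modifiers of autophagy, which are joined to lipids or to other autophagy proteins, included 3 genes that were lower in monosomes. GABARAPL2 had 105 and 79.6 CPM in monosomes, against 647 and 169.8 in polysomes (log2 ratio -1.92, adjusted p = 0.00165). MAP1LC3B had 93.9 and 74.1 CPM in monosomes, against 279.7 and 129 in polysomes (log2 ratio -1.18, adjusted p = 0.0214), and ATG12 had a ratio of -1.46. None of the 3 passed without the letter term (adjusted p = 0.0596, adjusted p = 0.162 and adjusted p = 0.131), nor in the fit without monosome library A, where 0 members of their list were lower. The thymosins, small actin-binding proteins, were higher, TMSB15A with 61.4 and 82.3 CPM in monosomes, against 21.6 and 4.05 in polysomes (log2 ratio 2.83, adjusted p = 0.000308) and TMSB10 with 3479.7 and 1888 CPM in monosomes, against 2077 and 447 in polysomes (log2 ratio 1.36, adjusted p = 0.0397), and in TMSB10 the fractions overlapped. Neither thymosin passed without the letter term (adjusted p = 0.0822 and adjusted p = 0.406), TMSB15A was lost without monosome library B (log2 ratio 1.69, adjusted p = 0.0638) and TMSB10 without polysome library B (log2 ratio 0.87, adjusted p = 0.366). These genes were picked from their lists after their values were seen.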
